A study of Rattus norvegicus with 120 samples.

Results

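Cyp8b1, Gcgr, Pklr, Gtpbp4 and Tm4sf20 are 5 genes of the rat kidney that were lower at day 28 in rats given each of 3 immunosuppressive drugs, and they are followed here through every group of the study. They are 5 of the 14217 genes that the array names by a probe set of their own, and all 5 were among the 10663 genes tested after the dimmest genes were left out. The genes were chosen by their levels at day 28, where all 3 drugs lowered them, so that day is described without a test, while the rats of days 1, 7 and 14 are other animals and could be tested. For each gene the probe set with the highest mean over all 120 arrays was used. Pklr and Gtpbp4 each had a second probe set, which makes 7 probe sets in all.

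Male Sprague-Dawley rats of 5 to 7 weeks received daily intraperitoneal injections of the olive oil vehicle or of a drug in it. The drugs were CsA (cyclosporine) at 2.5 or 25 mg/kg, FK506 (tacrolimus) at 0.6 or 6 mg/kg and Rapa (rapamycin) at 1 or 10 mg/kg per day, for 1, 7, 14 or 28 days. Kidneys were taken 24 hours after the last dose, and 1 array was run for each of the 120 rats. The resulting 28 groups held 4 rats each, except that FK506 6 mg/kg at day 14 held 3. At day 28 there were 5 vehicle rats, 5 and 4 rats of the lower and higher CsA dose, 6 and 5 of FK506, and 6 at each Rapa dose.

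CsA and FK506 bind different immunophilins and both inhibit the phosphatase calcineurin, whereas rapamycin inhibits the kinase mTOR. Cyp8b1 is the sterol hydroxylase that directs bile acid synthesis towards cholic acid and is known mainly from the liver. Gcgr is the receptor for glucagon, which raises cyclic AMP and drives gluconeogenesis in liver and kidney. Pklr encodes the liver and red cell pyruvate kinase, the last enzyme of glycolysis, which is also made in the proximal tubule. Gtpbp4 is a nucleolar GTP-binding protein needed to build the large ribosomal subunit. Tm4sf20 is a membrane protein of the TM4SF family that restrains the cleavage of the membrane-bound factor CREB3L1. The last 2 genes are not metabolic enzymes, so a metabolic label covers only Cyp8b1, Gcgr and Pklr.

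The sequences before the transcription starts are shown because the 5 genes moved together at day 28, and a shared element could then be looked for. RefSeq promoters (assembly GRCr8) were at hand for Cyp8b1, Gcgr, Pklr and Gtpbp4, with 5 starts between them, and 3 are printed over the 250 bases before the start, 5′ to 3′, with motif matches in capitals. In Pklr (chr2:176841014-176841263, plus strand) the capitals mark first the paired arms of a carbohydrate response element, CACGNNNNNNNNNCGTG, and then the HNF1 palindrome GTTANNNNNTAAC. In Cyp8b1 (chr8:130457593-130457842, minus strand) they mark the HNF4 element CAANGTCCA, and in Gtpbp4 (chr17:65999133-65999382, plus strand) 3 copies of the ETS core CGGAAGT.
Pklr: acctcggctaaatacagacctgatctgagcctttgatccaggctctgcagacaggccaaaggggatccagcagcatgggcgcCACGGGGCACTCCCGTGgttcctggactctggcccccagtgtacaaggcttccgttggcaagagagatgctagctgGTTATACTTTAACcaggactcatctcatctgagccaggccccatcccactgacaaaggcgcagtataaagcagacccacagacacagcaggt
Cyp8b1: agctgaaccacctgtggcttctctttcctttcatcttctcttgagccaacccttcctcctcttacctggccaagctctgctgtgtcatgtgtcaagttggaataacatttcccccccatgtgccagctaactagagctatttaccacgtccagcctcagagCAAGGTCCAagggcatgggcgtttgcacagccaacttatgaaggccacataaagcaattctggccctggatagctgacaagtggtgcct
Gtpbp4: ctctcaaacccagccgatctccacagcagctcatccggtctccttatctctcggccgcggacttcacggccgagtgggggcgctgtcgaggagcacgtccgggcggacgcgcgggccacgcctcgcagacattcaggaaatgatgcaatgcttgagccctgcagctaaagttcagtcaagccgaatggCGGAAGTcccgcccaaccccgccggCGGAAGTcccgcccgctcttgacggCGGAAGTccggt

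Motifs were searched on both strands, were chosen after the sequences had been read, and did not overlap one another. The HNF1 match of Pklr lay 92 to 80 bases before the start, and 0.233% of 33469 promoters of this length held such a palindrome. Its carbohydrate-response arms lay 168 to 152 bases before the start and were held by 0.158% of promoters. The HNF4 match of Cyp8b1 lay 89 to 81 bases before the start (0.807% of promoters), and the ETS cores of Gtpbp4 began 62, 37 and 12 bases before it. At least 1 such core was held by 5.22% of promoters, and the share with several copies was not counted. The cyclic AMP response element TGACGTCA, in 1.59% of promoters, matched none of the 5 windows, and neither Gcgr start held any of these letters. None of these motifs was found in more than 1 of the 4 genes. Because they were chosen by reading the sequences and no others were searched, this does not answer whether the promoters share an element. A match of letters is a description and not a binding site.

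The kidney samples carried defining markers of the tissue, with a median log2 level of 13.70 for Slc34a1 and 13.13 for Lrp2 of the proximal tubule and 13.71 for Umod of the thick ascending limb. Here and below a level is log2 of the deposited intensity plus 16, after quantile normalisation. Of the arrays, 5 stood apart. In 4 of them the liver gene Alb exceeded 12, against a median of 5.65 over all arrays: CsA 25 mg/kg day 1 replicates 3 and 4, CsA 2.5 mg/kg day 14 replicate 4 and CsA 2.5 mg/kg day 28 replicate 2. The fifth, CsA 25 mg/kg day 28 replicate 3, held 5273 zeros, 17% of its probe sets, though none at the 5 genes. Hybridisation control spikes were lower at day 28 in FK506 6 mg/kg (mean log2 level 8.86) and Rapa 1 mg/kg (9.38) than in the other groups (10.15 to 10.71).

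No fall of the 5 genes passed the test after 1 or 7 daily doses, and the first called falls were those of day 14. That order sets calls against no calls. Direct tests between days called 1 of 45 changes of the higher-dose effects (1.29% over all genes), that of Cyp8b1 in CsA 25 mg/kg between days 1 and 14. The day 14 calls also depended on the vehicle rats used, as given below. At day 1, 13 of the 30 differences between a gene's treated group and the vehicle rats of the same day lay below 0, with a median of 0.02. At day 7, 18 of 30 lay below 0, with a median of -0.16. By limma with Benjamini-Hochberg adjustment over all 10663 genes, 0 of 30 were called at either day, where 0.385% of all gene comparisons were called lower and 0.714% higher at day 1, and 1.86% lower and 1.58% higher at day 7. By day 14, 29 of 30 lay below 0 with a median of -0.76, and 5 were called lower (limma, adjusted p between 0.00494 and 0.0378), against 2.56% of all gene comparisons of that day called lower and 2.61% called higher. The called differences were Cyp8b1 and Pklr in Rapa 1 mg/kg, Cyp8b1 and Gtpbp4 in Rapa 10 mg/kg and Pklr in FK506 6 mg/kg. Each treated group of a day shares its 4 vehicle rats with the others, so the 30 differences are not independent.

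**Figure D1:**
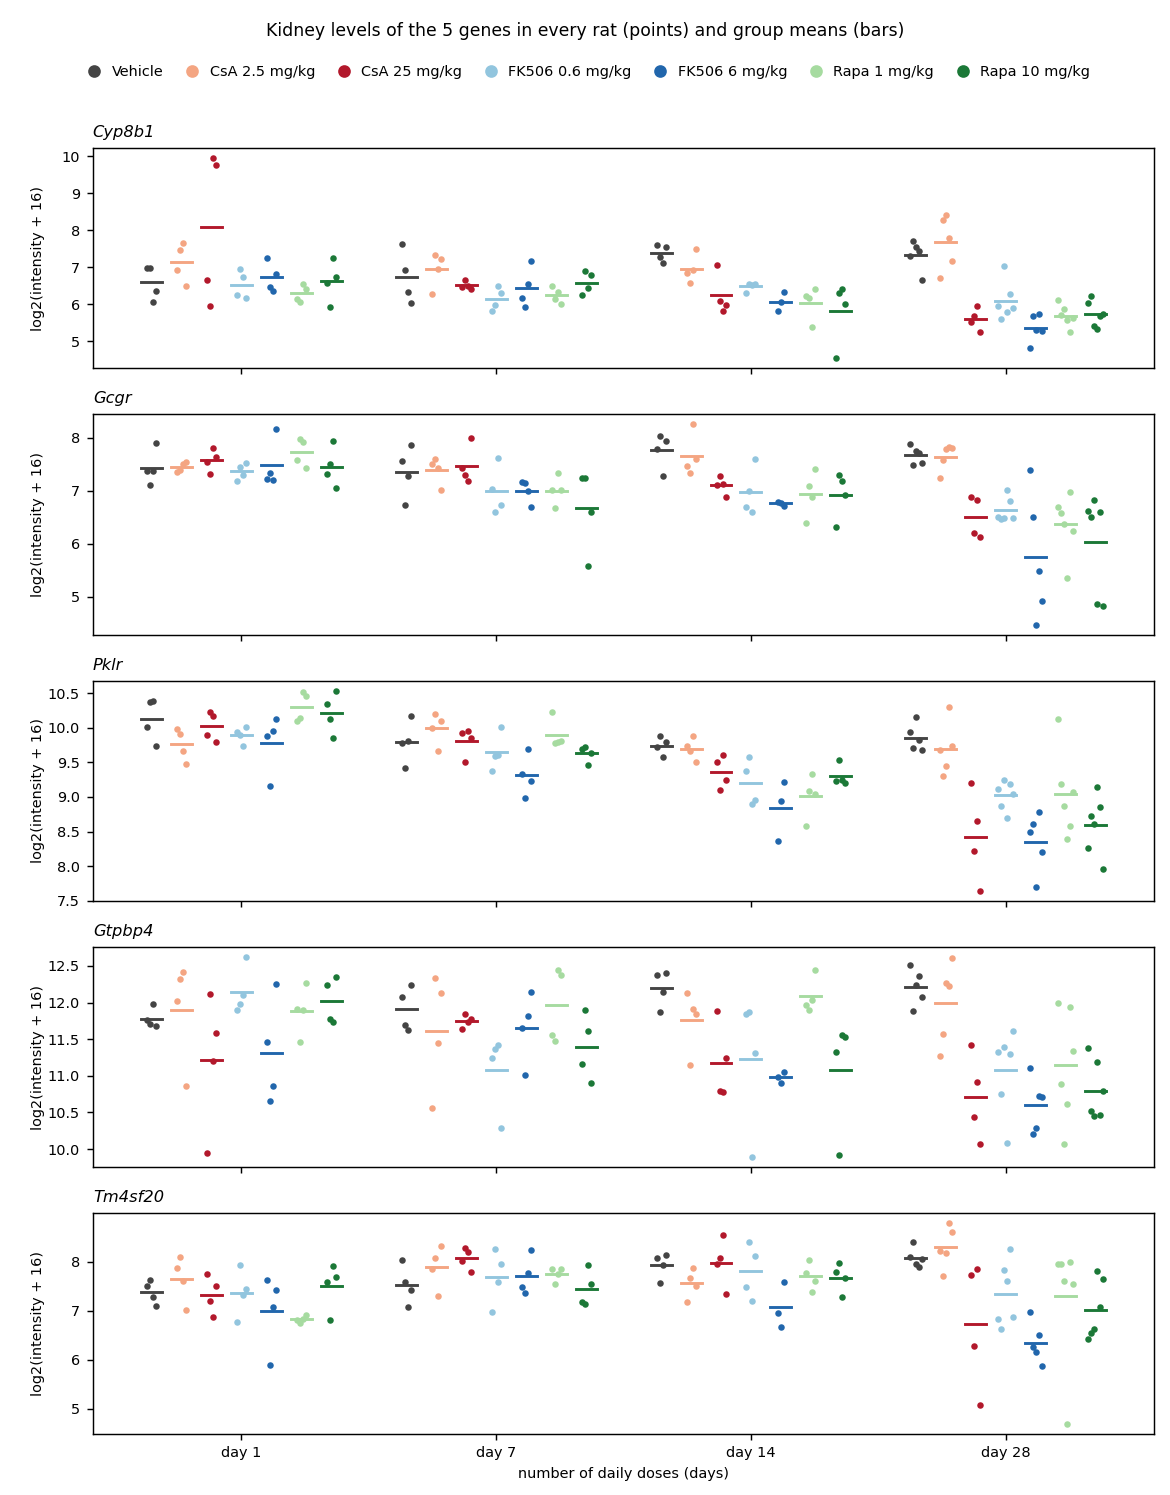
Log2 level of each gene (y axis, log2 of intensity plus 16) in every rat, by the number of daily doses (x axis, days); points are single rats, bars group means and colours the treatments. At days 1 and 7 all treated groups overlap the vehicle rats except Tm4sf20 in Rapa 1 mg/kg at day 1 and Gtpbp4 in FK506 0.6 mg/kg at day 7, and at day 28 the treated groups other than CsA 2.5 mg/kg lie below the vehicle mean for all 5 genes.

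No treated rat overlapped the vehicle rats in 12 of the 30 comparisons of day 14, against 5.34% of all gene comparisons, in 1 of 30 at day 7 (4.43%) and in 1 of 30 at day 1 (2.92%). At day 28, which chose the genes, 28 of 30 differences lay below 0 with a median of -1.25, and 20 of 30 groups did not overlap the vehicle rats (3.48% of all gene comparisons); this is a description. The median of the 5 genes at day 14 was -0.37 in CsA 2.5 mg/kg, -0.66 in CsA 25 mg/kg, -0.79 and -1.0 at the lower and higher FK506 dose and -0.73 and -0.83 at the lower and higher Rapa dose. FK506 6 mg/kg was thus the group with the lowest median, and 4 of its 5 genes did not overlap the vehicle rats. At day 28 the same medians were -0.02, -1.43, -1.04, -1.72, -1.07 and -1.42, and only that of the lower CsA dose lay near 0.

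**Figure D2:**
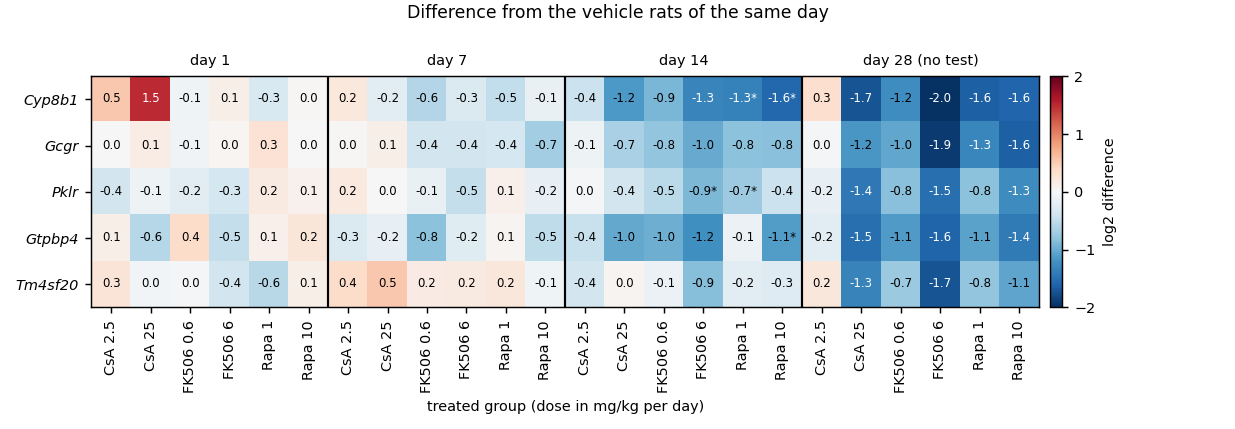
Log2 difference of each gene (y axis) in each treated group (x axis, dose in mg/kg per day) from the vehicle rats of the same day; colour gives the difference, blue lower, and an asterisk marks the 5 differences called by limma at day 14. Day 28 carries no test, and its column for CsA 2.5 mg/kg runs only from -0.23 to 0.34.

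Cyp8b1, the sterol hydroxylase, had the largest fall of the 5 genes at day 14 and the widest spread at day 1. In the vehicle rats of day 14 the levels were 7.61, 7.28, 7.11 and 7.54. In Rapa 10 mg/kg they were 4.53, 6.29, 6.41 and 6.01, and in Rapa 1 mg/kg 6.22, 6.15, 5.38 and 6.41. All 8 rapamycin rats lay below all 4 vehicle rats. Cyp8b1 fell by 1.58 on the log2 scale in Rapa 10 mg/kg (SE 0.40, limma adjusted p = 0.00494, 2.98-fold lower) and by 1.35 in Rapa 1 mg/kg (SE 0.40, adjusted p = 0.0211, 2.54-fold lower), where 5.3% and 4.97% of all genes were called lower. Without replicate 1 of Rapa 10 mg/kg, the rat at 4.53, the difference was -1.15 and was not called (adjusted p = 0.0749), and the Rapa 1 mg/kg call was lost without its replicate 3 (-1.12) or without vehicle replicate 1 (-1.27).

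In the calcineurin inhibitor groups the Cyp8b1 differences missed the threshold. The levels at day 14 were 5.81, 6.06 and 6.33 in FK506 6 mg/kg, a difference of -1.32 from vehicle (limma adjusted p = 0.0737), and 7.07, 6.09, 5.81 and 5.96 in CsA 25 mg/kg (-1.15, adjusted p = 0.0592). Every rat of both groups lay below every vehicle rat of the day. At day 1 the CsA 25 mg/kg rats stood at 6.66, 5.96, 9.95 and 9.77, and the latter pair are the arrays with Alb at 14.49 and 14.38. That difference from vehicle was 1.49 (SE 0.40, limma adjusted p = 0.0512), the lowest adjusted p of any of the 5 genes at day 1. The change of the CsA 25 mg/kg effect between day 1 and day 14 was the 1 called of 45 changes of higher-dose effects (-2.64, limma adjusted p = 0.00592, 1.29% of all gene comparisons called). It was -0.87 without the arrays with Alb above 12 (adjusted p = 0.548), and -2.02 or -2.08 and not called without either of these day 1 rats alone.

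At day 28 Cyp8b1 stood at 7.29, 7.70, 7.54, 7.45 and 6.66 in the vehicle rats. It was at 5.53, 5.68, 5.94 and 5.25 in CsA 25 mg/kg and at 4.81, 5.68, 5.30, 5.72 and 5.28 in FK506 6 mg/kg. The 6 rats of Rapa 10 mg/kg ranged from 5.34 over a median of 5.72 to 6.22. No rat of these 3 groups reached the lowest vehicle rat, and the differences were -1.73, -1.97 and -1.59. Rapa 1 mg/kg gave -1.64, with rats from 5.26 to 6.12 (median 5.66), and FK506 0.6 mg/kg gave -1.24, with 1 of its 6 rats, at 7.03, inside the vehicle range. CsA 2.5 mg/kg, at 6.69, 8.27, 8.42, 7.79 and 7.17, lay 0.34 above the vehicle mean and overlapped it. With an offset of 64 in place of 16 the differences of CsA 25 mg/kg, FK506 6 mg/kg, Rapa 1 mg/kg and Rapa 10 mg/kg shrank to -1.12, -1.23, -1.07 and -1.04.

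Gcgr, the glucagon receptor, moved in the same direction at day 14 without a call. The vehicle rats of day 14 were at 7.79, 8.04, 7.29 and 7.94, and the FK506 6 mg/kg rats at 6.80, 6.78 and 6.71, all below them, a difference of -1.0 (limma adjusted p = 0.117). CsA 25 mg/kg, at 7.12, 7.29, 7.14 and 6.89, also did not overlap the vehicle rats (-0.66, adjusted p = 0.234). The lowest adjusted p was 0.0973, for the difference of -0.83 in Rapa 10 mg/kg, whose rats at 6.31, 7.30, 7.18 and 6.93 overlapped the vehicle rats. At days 1 and 7 the differences ran from -0.07 to 0.29 and from -0.69 to 0.11.

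At day 28 Gcgr gave 5 of 6 groups without overlap. Vehicle rats stood at 7.89, 7.48, 7.75, 7.71 and 7.53, and CsA 2.5 mg/kg rats at 7.24, 7.58, 7.79, 7.83 and 7.81. FK506 6 mg/kg rats were spread over 7.39, 6.5, 4.47, 5.49 and 4.92, which gave the largest difference, -1.92, and the largest SD of any Gcgr group, 1.19 (n = 5). Rapa 10 mg/kg had 2 of its 6 rats, at 4.86 and 4.83, far below the other 4 at 6.51 to 6.83, with a difference of -1.63. Rapa 1 mg/kg ranged from 5.34 over a median of 6.48 to 6.97, CsA 25 mg/kg from 6.13 to 6.88 and FK506 0.6 mg/kg from 6.46 over 6.51 to 7.01. The differences of FK506 6 mg/kg and Rapa 10 mg/kg were -1.21 and -1.09 with an offset of 64, which weighs such low values less.

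Pklr, the pyruvate kinase, had the smallest spread of the 5 genes, a residual SD of 0.33 within groups against 0.48 to 0.58 for the others. The vehicle rats of day 14 stood at 9.72, 9.87, 9.57 and 9.79. FK506 6 mg/kg rats were at 8.36, 8.94 and 9.21 and Rapa 1 mg/kg rats at 8.58, 9.09, 9.33 and 9.04, and neither group overlapped the vehicle rats. Pklr fell by 0.90 in FK506 6 mg/kg (SE 0.25, limma adjusted p = 0.0284, n = 3, 1.44% of all genes called lower) and by 0.73 in Rapa 1 mg/kg (SE 0.23, adjusted p = 0.0295, n = 4). Rapa 10 mg/kg, at 9.23, 9.54, 9.24 and 9.20, also lay below every vehicle rat, with a difference of -0.43 that was not called (adjusted p = 0.228).

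Both Pklr calls rested on single rats and on the probe set. Without replicate 1 of FK506 6 mg/kg the difference was -0.66 (limma adjusted p = 0.243), and that call was also lost without vehicle replicate 1, 2 or 4. The Rapa 1 mg/kg call was lost without its replicate 1 (-0.58) or 4, or without vehicle replicate 2 or 4. The second Pklr probe set, whose values correlated with the first at r = 0.942 over the 120 arrays and 0.845 within groups, gave -0.82 in FK506 6 mg/kg (adjusted p = 0.0956) and -0.43 in Rapa 1 mg/kg, neither called.

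At day 28 the vehicle rats stood at 9.93, 9.70, 10.16, 9.83 and 9.67 for Pklr. CsA 25 mg/kg rats were at 9.20, 8.22, 8.65 and 7.64 and FK506 6 mg/kg rats at 8.49, 8.61, 7.70, 8.78 and 8.21. Differences were -1.43 and -1.5, and -1.26 in Rapa 10 mg/kg, whose rats ranged from 7.96 over a median of 8.66 to 9.15. All 3 higher-dose groups and FK506 0.6 mg/kg (-0.83, from 8.70 to 9.25) lay wholly below the vehicle rats. Rapa 1 mg/kg gave -0.82, with its replicate 1 at 10.12 near the top of the vehicle range and the other 5 rats at 8.40 to 9.19. CsA 2.5 mg/kg, at 9.67, 9.30, 9.45, 10.29 and 9.73, differed by -0.17 and overlapped the vehicle rats.

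Gtpbp4, the ribosome assembly GTPase, had its largest day 14 differences in the higher-dose groups. The lower dose of FK506, 0.6 mg/kg, came close to them at -0.97 (limma adjusted p = 0.2). Vehicle rats of that day stood at 12.37, 11.87, 12.15 and 12.41, FK506 6 mg/kg rats at 10.98, 10.91 and 11.05, and Rapa 10 mg/kg rats at 11.32, 9.92, 11.56 and 11.53. Neither treated group overlapped the vehicle rats. Gtpbp4 fell by 1.12 in Rapa 10 mg/kg (SE 0.37, limma adjusted p = 0.0378), while the differences of -1.22 in FK506 6 mg/kg (adjusted p = 0.0737) and -1.03 in CsA 25 mg/kg (adjusted p = 0.0699) were not called. Without replicate 2 of Rapa 10 mg/kg, the rat at 9.92, the difference was -0.73 (adjusted p = 0.252), and the call was also lost without vehicle replicate 1, 3 or 4. Rapa 1 mg/kg, at 11.97, 11.90, 12.04 and 12.45, overlapped the vehicle rats, with 1 rat above all of them and a difference of -0.11.

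At day 28 Gtpbp4 stood at 12.51, 11.88, 12.24, 12.36 and 12.08 in the vehicle rats. It was at 11.42, 10.43, 10.92 and 10.07 in CsA 25 mg/kg, at 11.11, 10.20, 10.28, 10.73 and 10.71 in FK506 6 mg/kg, and from 10.45 over a median of 10.66 to 11.38 in Rapa 10 mg/kg. The differences were -1.5, -1.61 and -1.42, and no rat of these groups reached the vehicle range. FK506 0.6 mg/kg also lay wholly below (-1.14, from 10.09 to 11.61), whereas Rapa 1 mg/kg, from 10.07 over 11.11 to 12, overlapped it (-1.07). CsA 2.5 mg/kg differed by -0.23. The second Gtpbp4 probe set followed the first closely, with r = 0.974 over all arrays and 0.962 within groups.

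Tm4sf20, the membrane protein, showed no called difference at days 1, 7 or 14 and moved least at day 14, where its median difference was -0.24. Vehicle rats of day 14 stood at 8.08, 7.57, 7.93 and 8.14 and FK506 6 mg/kg rats at 6.97, 6.68 and 7.60, and these overlapped (-0.85, limma adjusted p = 0.3, the lowest of that day for this gene). The 1 group without overlap at day 1 was Tm4sf20 in Rapa 1 mg/kg, at a mean of 6.83 ± 0.07 (SD, n = 4) against 7.38 ± 0.24 in the vehicle rats, and it was not called.

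At day 28 the vehicle rats stood at 8.09, 8.39, 7.96, 7.89 and 8.05 for Tm4sf20. FK506 6 mg/kg rats were at 6.97, 6.27, 6.15, 6.5 and 5.88, the largest difference at -1.72. CsA 25 mg/kg rats were at 7.74, 6.28, 7.86 and 5.09, each below the lowest vehicle rat. The difference of -1.34 was -0.79 without replicate 4 and -1.71 without replicate 3, the array with zeros. Rapa 10 mg/kg gave -1.05, from 6.44 over a median of 6.85 to 7.82. Rapa 1 mg/kg gave -0.78, but 5 of its rats were at 7.55 to 8.0 and replicate 4 at 4.70, and without that rat the difference was -0.26. FK506 0.6 mg/kg gave -0.74, from 6.64 over 7.24 to 8.26, and CsA 2.5 mg/kg lay at 8.21, 7.72, 8.18, 8.79 and 8.60, above the vehicle mean by 0.22. With the hybridisation control as a covariate, the Rapa 1 mg/kg difference was -0.50, and those of FK506 6 mg/kg were -1.30 for Tm4sf20, -1.38 for Gtpbp4, -1.40 for Pklr, -1.65 for Gcgr and -1.96 for Cyp8b1.

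Ordered over all 28 groups, FK506 6 mg/kg at day 28 had the lowest mean of all 5 genes. This group also had the lowest mean of the hybridisation control spikes (8.86), and the order was not repeated with them as a covariate. The highest means were Cyp8b1 in CsA 25 mg/kg at day 1 (8.09 ± 2.07, SD, n = 4), Gcgr in the vehicle rats of day 14 (7.76), Pklr in Rapa 1 mg/kg at day 1 (10.30), Gtpbp4 in the vehicle rats of day 28 (12.21) and Tm4sf20 in CsA 2.5 mg/kg at day 28 (8.30). Groups of day 28 took 4, 5, 3, 4 and 3 of the lowest 5 places for Cyp8b1, Gcgr, Pklr, Gtpbp4 and Tm4sf20. The levels formed a continuous series: none of the 27 steps between neighbouring group means exceeded the residual SD of its gene, and the largest steps were 0.42, 0.33, 0.27, 0.22 and 0.39.

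No difference between the doses of a drug passed the test at days 1, 7 or 14. Of 45 differences between the higher and the lower dose, 0 were called (lowest adjusted p by limma 0.334, where 0.983% of all gene comparisons were called), and they ran from -1.0 to 0.95 with a median of -0.18 and standard errors of 0.23 to 0.43. At day 28, as a description, CsA 25 mg/kg lay below CsA 2.5 mg/kg by differences of -2.07 for Cyp8b1, -1.14 for Gcgr, -1.26 for Pklr, -1.28 for Gtpbp4 and -1.56 for Tm4sf20. FK506 6 mg/kg minus 0.6 mg/kg ran from -0.99 to -0.47 and Rapa 10 mg/kg minus 1 mg/kg from -0.44 to 0.05. The dose step was thus widest for CsA. Doses of different drugs were not matched, and no test between drugs was made.

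The vehicle means themselves differed between days. From day 1 to day 28 the mean went from 6.60 ± 0.46 to 7.33 ± 0.40 for Cyp8b1, from 7.44 ± 0.33 to 7.67 ± 0.16 for Gcgr, from 11.78 ± 0.14 to 12.21 ± 0.24 for Gtpbp4 and from 7.38 ± 0.24 to 8.08 ± 0.19 for Tm4sf20 (SD, n = 4 and 5). Pklr went the other way, from 10.13 ± 0.31 to 9.86 ± 0.20. Of the 15 differences between the vehicle groups of days 1, 7 and 14, 0 were called (limma, lowest adjusted p = 0.401, 2.44% of all gene comparisons called), and the vehicle rats of day 28 were not tested. Age, the number of injections and the day of sampling cannot be told apart in these groups.

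The day 28 differences kept their sign with other vehicle rats, and their size depended on which rats were used. Over the 5 treated groups other than CsA 2.5 mg/kg, all 25 differences stayed below 0 when the vehicle rats of day 1, 7 or 14, or all 12 of them, took the place of those of day 28. Against the 12 earlier vehicle rats, the median of these groups went from -1.64 to -1.21 for Cyp8b1, from -1.31 to -1.15 for Gcgr, from -1.42 to -1.16 for Gtpbp4 and from -1.05 to -0.59 for Tm4sf20. For Pklr it went from -1.26 to -1.29. Against day 14 vehicle rats alone the medians were -1.70 for Cyp8b1, -1.40 for Gcgr, -1.14 for Pklr, -1.40 for Gtpbp4 and -0.91 for Tm4sf20, larger in size than with day 28 vehicle rats for Cyp8b1 and Gcgr and smaller for the other 3. Against day 7 vehicle rats all 5 were smaller in size, at -1.04, -1.0, -1.20, -1.11 and -0.51 in the same order. Against day 1 vehicle rats alone, Tm4sf20 ran from -1.03 to -0.04 and Cyp8b1 from -1.24 to -0.51, while Pklr ran from -1.77 to -1.09.

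Counted by single rats, Pklr and Gtpbp4 were the genes least moved by the choice of vehicle rats. Of the 27 rats in these 5 groups, 26, 27, 26, 25 and 23 lay below all day 28 vehicle rats for Cyp8b1, Gcgr, Pklr, Gtpbp4 and Tm4sf20, and 23, 20, 26, 25 and 15 lay below all 12 earlier vehicle rats. In 4.08% of all gene comparisons of these 5 groups, no treated rat overlapped the day 28 vehicle rats. That share counts whole groups. No share over all genes was computed for counts of single rats or for the 12 earlier vehicle rats, so how unusual these counts are was not tested. Leaving out any 1 day 28 vehicle rat moved a difference by at most 0.17 for Cyp8b1 and 0.08 for the other genes. CsA 2.5 mg/kg, set against the 12 earlier vehicle rats, lay at 0.76, 0.13, -0.20, 0.03 and 0.68 for the 5 genes in the same order.

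**Figure D3:**
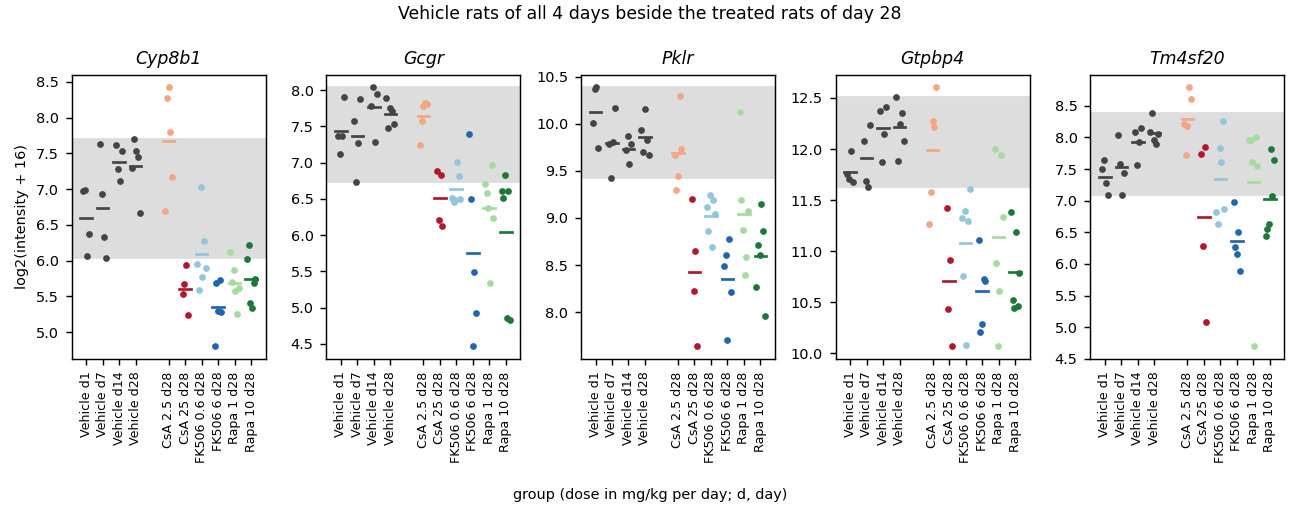
Log2 level (y axis, log2 of intensity plus 16) of the 17 vehicle rats of days 1, 7, 14 and 28 (grey, with their whole range shaded) and of the treated rats of day 28 (colours; x axis, group with dose in mg/kg per day); bars are group means. For Pklr 26 and for Gtpbp4 25 of the 27 rats of the 5 lower groups lie below the shaded range, and CsA 2.5 mg/kg stays around the vehicle rats throughout.

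The day 14 falls depended more on the vehicle rats of their own day. Cyp8b1 in the vehicle rats of day 14, at a mean of 7.39 ± 0.23 (SD, n = 4), was above that of day 1 and of day 7 (6.73 ± 0.71). This comparison was added after the data had been seen. With the day 1 vehicle rats in their place, the 6 day 14 differences of Cyp8b1 ran from -0.79 to 0.36, those of Gcgr from -0.68 to 0.23, those of Gtpbp4 from -0.80 to 0.31 and those of Tm4sf20 from -0.30 to 0.60, with 0 called among these 4 genes by limma, where 3.56% of all gene comparisons were called lower. Pklr ran from -1.29 to -0.43, and 5 of its 6 differences were called lower. With the day 7 vehicle rats (4.25% called lower) 2 differences were called, both of Pklr: -0.96 in FK506 6 mg/kg (adjusted p = 0.0114) and -0.78 in Rapa 1 mg/kg (adjusted p = 0.0184). Only Pklr therefore kept a called fall at day 14 with each of the vehicle groups tried. Its vehicle mean was 10.13 at day 1 and 9.74 at day 14, so the day 1 vehicle rats made its differences larger in size. For the other 4 genes the day 1 vehicle mean was below that of day 14, so the exchange went the other way. Neither day 14 call of Pklr held with its second probe set, which was not tried with other vehicle rats.

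The other genes of each pathway, come from lists drawn up with earlier results of these data known, and are set beside the calls over all genes. Over all genes tested, the shares called lower and higher at day 14 were 0.0188% and 0.0469% in CsA 2.5 mg/kg, 3.13% and 4.75% in CsA 25 mg/kg, 0.497% and 0.375% in FK506 0.6 mg/kg, 1.44% and 1.24% in FK506 6 mg/kg, 4.97% and 4.08% in Rapa 1 mg/kg and 5.3% and 5.2% in Rapa 10 mg/kg. At day 28 they were 0% and 0%, 10.7% and 10.5%, 1.74% and 2.59%, 7.29% and 8.73%, 5.09% and 4.75%, and 8.16% and 7.57% in the same order, and 5.5% and 5.68% over the 6 groups. In CsA 2.5 mg/kg none of the pathway lists had a called gene at either day. The list medians lay between -0.16 and 0.20 at both days, against -0.01 to 0.02 over all genes.

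Of the bile acid list, 20 of 31 genes were tested, and at day 14 the counts called by limma over all genes were 0 up and 3 down in CsA 25 mg/kg and 0 up and 1 down at each Rapa dose, with 0 called in the other groups. In CsA 25 mg/kg the nuclear receptors Nr0b2 (-0.69, adjusted p = 0.0402) and Nr1h4 (-0.55, adjusted p = 0.00377) and the receptor Fgfr4 (-0.63, adjusted p = 0.00962) fell. Cyp7a1, the rate-limiting enzyme of the pathway, was among the dim genes and was not tested. At day 28 the list had 3 up and 5 down in CsA 25 mg/kg, 2 and 0 in FK506 0.6 mg/kg, 2 and 4 in FK506 6 mg/kg, 0 and 2 in Rapa 1 mg/kg and 0 and 5 in Rapa 10 mg/kg. The organic anion carrier Slco1a1 fell by 2.13 in CsA 25 mg/kg and by 1.29 in FK506 6 mg/kg, and the peroxisomal oxidase Acox2 fell in both, by 1.17 and 0.85, and in Rapa 1 and 10 mg/kg by 0.92 and 1.13. In FK506 6 mg/kg the bile acid transporter subunit gene Slc51a fell by 1.75 and the exporter gene Abcc2 rose by 0.87. Without the array with zeros the CsA 25 mg/kg counts were 1 up and 5 down.

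Genes of glucagon signalling and gluconeogenesis were called in both directions. Of 36 listed genes 29 were tested, and at day 14 the counts were 3 up and 0 down in CsA 25 mg/kg, 0 and 1 in FK506 6 mg/kg, 2 and 1 in Rapa 1 mg/kg and 3 and 1 in Rapa 10 mg/kg. The kinase Sik1 rose by 0.95 in CsA 25 mg/kg, and the gluconeogenic enzyme Fbp1 fell by 0.30 in Rapa 1 mg/kg. At day 28 the counts were 2 up and 2 down in CsA 25 mg/kg, 0 and 0 in FK506 0.6 mg/kg, 2 and 1 in FK506 6 mg/kg, 1 and 1 in Rapa 1 mg/kg and 2 and 1 in Rapa 10 mg/kg. The phosphodiesterase Pde4b rose by 0.40 in CsA 25 mg/kg and in FK506 6 mg/kg, and the protein kinase A subunit Prkar1a rose by 0.19 and 0.22 in Rapa 1 and 10 mg/kg. Pyruvate carboxylase, Pc, fell by 0.68 and 0.75 in Rapa 1 and 10 mg/kg. The fall of Ppargc1a in CsA 25 mg/kg (-1.43) rested on the array with zeros and was -0.14 without it (adjusted p = 0.337).

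Calls in the glycolysis list, which covers the pathway that Pklr closes, went mostly down. Of 32 genes 22 were tested, with 0 up and 2 down in CsA 25 mg/kg, 0 and 1 in FK506 6 mg/kg, 0 and 3 in Rapa 1 mg/kg and 1 and 4 in Rapa 10 mg/kg at day 14, and list medians of -0.08 to -0.10 in these groups against -0.01 to 0.00 over all genes. The kinase gene Pfkfb2 fell by 0.77 in FK506 6 mg/kg (adjusted p = 0.0195), and Ldhb fell by 0.34 in Rapa 1 mg/kg. At day 28 the counts were 2 up and 8 down in CsA 25 mg/kg, 0 and 1 in FK506 0.6 mg/kg, 2 and 5 in FK506 6 mg/kg, 1 and 3 in Rapa 1 mg/kg and 2 and 8 in Rapa 10 mg/kg. Ketohexokinase, Khk, fell by 0.49, 0.45, 0.26 and 0.36 in CsA 25, FK506 6, Rapa 1 and Rapa 10 mg/kg, and the carbohydrate-responsive factor Mlxipl fell by 0.47 and 0.44 in the first pair. These falls were smaller than those of Pklr in the same groups. The glucose carrier Slc2a2 rose by 0.51 in CsA 25 mg/kg (0.44 and not called without the array with zeros) and fell by 0.53 in Rapa 10 mg/kg.

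Whether calls in the pathway of Gtpbp4 exceeded the shares over all genes was not tested. At day 7 Bysl and Gnl3 fell by 0.58 and 0.43 in Rapa 1 mg/kg, where Ncl rose by 0.34. Pes1 fell by 0.33 in Rapa 10 mg/kg at that day. Of 48 ribosome biogenesis genes 45 were tested, and at day 14 none fell by the test in any group. Those that rose numbered 2, 2 and 1 in CsA 25 mg/kg, Rapa 1 mg/kg and Rapa 10 mg/kg, Rrp12 by 0.54 and Mybbp1a by 0.38 among them. Over all genes, 4.75%, 4.08% and 5.2% were called higher in these groups. At day 28 Pes1, a factor of the large subunit, rose in all 5 groups in which Gtpbp4 was low, by 0.35 in CsA 25 mg/kg, 0.38 in FK506 0.6 mg/kg, 0.43 in FK506 6 mg/kg, 0.25 in Rapa 1 mg/kg and 0.31 in Rapa 10 mg/kg. These differences share their vehicle rats, whose Pes1 mean was 8.09, against 8.34 in the vehicle rats of day 7. The treated means of day 28 ran from 8.34 in Rapa 1 mg/kg to 8.52 in FK506 6 mg/kg, and other vehicle rats were not tried for Pes1. CsA 25 mg/kg had 5 up and 3 down, but 6 up and 0 down without the array with zeros, where Nmd3 went from -1.09 to 0.09 and Bop1 from -1.03 to -0.20. The other counts of day 28 were 2 and 0 in FK506 0.6 mg/kg, 1 and 1 in FK506 6 mg/kg, 1 and 0 in Rapa 1 mg/kg and 2 and 0 in Rapa 10 mg/kg. Over all genes, the shares called higher at day 28 were 10.5% in CsA 25 mg/kg and 2.59%, 8.73%, 4.75% and 7.57% in these other groups.

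Around Tm4sf20, 7 of 12 genes of its family and of the CREB3L factors were tested. At day 14 the list had 0 up and 1 down at each Rapa dose and 0 called in the other groups. At day 28 it had 2 up and 0 down in CsA 25 mg/kg, 1 and 0 in FK506 0.6 mg/kg and 0 and 1 at each Rapa dose. The factor Creb3 (0.44) and the protease gene Mbtps1 (0.25) rose in CsA 25 mg/kg, and Mbtps1 rose by 0.25 in FK506 0.6 mg/kg. Creb3l3, a membrane-bound factor of liver and intestine, fell in both Rapa groups at day 14, by 1.24 (adjusted p = 0.00017) and 0.98 (adjusted p = 0.00243), and at day 28 by 0.61 and 0.88, and it was not called in any CsA or FK506 group of those days. Creb3l3 had also fallen in Rapa 10 mg/kg at day 1, by 0.86, and in Rapa 1 and 10 mg/kg at day 7, by 1.06 and 0.86. Whether its change differed between drugs was not tested. Of 12 hepatocyte nuclear factor genes 4 were tested, and Cebpb rose by 1.08 in CsA 25 mg/kg at day 14. Hnf4a was called at day 28 in CsA 25 mg/kg alone, at -2.31, which was -0.28 without the array with zeros (adjusted p = 0.00125).

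Genes with the most similar pattern to each of the 5 over the 28 group means were, for Cyp8b1, the carrier Slc17a2 (Pearson r = 0.84), Paqr7 (0.811) and the aspartate-glutamate carrier Slc25a13 (0.806). For Gcgr they were malic enzyme Me1 (0.917), Melk (0.903) and Reep6 (0.899). For Pklr they were the peroxisomal reductase Pecr (0.921), Pdk3 (0.912) and the triokinase Tkfc (0.889). Gtpbp4 had Reep6 (0.855), Slc39a8 (0.824) and the prolactin receptor Prlr (0.802), and Tm4sf20 had Mpped1 (0.766), Osbpl8 (0.752) and Akr7a3 (0.701). Group means share vehicle, day and drug, so these values are a description.

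Agreement among the 5 genes was larger with day 28 than without it. Over the 28 group means their pairwise r ran from 0.439 (Pklr and Tm4sf20) to 0.86 (Gcgr and Pklr), and over the 21 groups of days 1, 7 and 14 the same pairs had -0.22 and 0.71. Within groups, over the deviations of the 120 arrays from their group means, r lay between 0.069 and 0.468. The values over groups that include day 28 are shaped by how the genes were chosen.

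Markers of other cell types were followed beside the 5 genes because kidney samples can hold neighbouring tissue and infiltrating cells, and fewer cells of a type and less RNA per cell cannot be told apart in whole kidney. The 20 proximal tubule markers on the array had group means of 11.89 to 12.31 and the 8 intestinal markers of 5.55 to 5.99. Of the proximal tubule markers 1 rose and 9 fell in CsA 25 mg/kg at day 28, 1 and 4 in FK506 6 mg/kg and 1 and 5 in Rapa 10 mg/kg, and 1 and 5 at each Rapa dose at day 14. The falls in CsA 25 mg/kg include Hnf4a, whose difference of -2.31 was -0.28 without the array with zeros. All marker counts and means of CsA 25 mg/kg at day 28, here and below, are given with that array only. In FK506 6 mg/kg at day 14 the called proximal tubule markers were Slc13a1 and Slc7a9, which rose by 1.26 and 0.54. In FK506 0.6 mg/kg at day 28 Slc13a1 and Slc7a9 rose by 0.72 and 0.39, while Gatm and Slc7a13 fell by 0.59 and 0.40. At day 28 the mean of the 11 tubular injury markers was above that of the vehicle rats in each group in which the 5 genes were low. The order of these means was not that of the falls. Their mean was 7.87 in the vehicle rats of day 28, 8.01 in CsA 2.5 mg/kg, 8.40 in Rapa 10 mg/kg, 8.52 in Rapa 1 mg/kg, 8.91 in FK506 0.6 mg/kg, 9.38 in FK506 6 mg/kg and 9.71 in CsA 25 mg/kg. At day 14 it was 8.01 in the vehicle rats, 8.20 and 8.25 in Rapa 10 and 1 mg/kg, 9.16 in FK506 6 mg/kg and 9.5 in CsA 25 mg/kg. By the test 9 of 11 rose at day 28 in CsA 25 mg/kg and in FK506 6 mg/kg, 6 in FK506 0.6 mg/kg, 5 in Rapa 1 mg/kg and 2 in Rapa 10 mg/kg, and 8, 5 and 0 rose at day 14 in CsA 25 mg/kg, FK506 6 mg/kg and each Rapa group. In FK506 0.6 mg/kg at day 14 Havcr1 alone was called, higher by 2.87. The Rapa groups, which held most of the day 14 calls of the 5 genes, thus had no called injury marker at that day. The 10 leukocyte markers had group means of 6.97 to 8.22, and 7 of them were tested. By the test 6 of 7 rose at day 28 in CsA 25 mg/kg and 5 in FK506 6 mg/kg, with 0 called in the other groups of that day. At day 14, 5 rose in CsA 25 mg/kg, while 4 fell in Rapa 1 mg/kg and 2 in Rapa 10 mg/kg, the macrophage marker Cd68 by 1.02 in the former and C1qa by 0.90 in the latter.

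Markers of the distal convoluted and connecting tubule were lower in the calcineurin inhibitor groups. Their 9 genes had a mean of 9.01 in the vehicle rats of day 28, 8.98 in CsA 2.5 mg/kg, 8.10 in CsA 25 mg/kg, 8.28 in FK506 0.6 mg/kg, 8.21 in FK506 6 mg/kg, 9.06 in Rapa 1 mg/kg and 9.12 in Rapa 10 mg/kg. Of the 8 tested, 5, 4 and 4 fell in CsA 25 mg/kg, FK506 0.6 mg/kg and FK506 6 mg/kg, and 2 and 1 rose in Rapa 1 and 10 mg/kg. Calb1, a calcium-binding protein of these segments, fell in the first 3 groups, with differences of -3.39, -3.52 and -3.04, and so did the sodium-chloride cotransporter Slc12a3, with -1.76, -1.23 and -1.72. At day 14 the counts that fell were 4, 4 and 5 in the same groups, with 2 up and 0 down in Rapa 1 mg/kg and 1 up and 1 down in Rapa 10 mg/kg. The part of these marker shifts in the falls was not tested.

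The liver gene Alb tracked Cyp8b1 more than the other genes. Within groups, Cyp8b1 correlated with Alb at r = 0.476 over the 120 arrays, and the other 4 genes at -0.08 to 0.12. The CsA 25 mg/kg rats of day 1 weigh heavily in the Cyp8b1 value. Their Alb levels were 5.67, 5.73, 14.49 and 14.38, and their Cyp8b1 levels 6.66, 5.96, 9.95 and 9.77. The correlation without these rats was not computed. The 22 liver markers on the array had group means of 5.67 to 8.89, the highest in CsA 25 mg/kg at day 1, where single arrays ran from 5.68 to 12.15. In the groups of the Cyp8b1 calls, the median difference of the liver list was 0.47 in Rapa 10 mg/kg at day 14 and 0.31 in Rapa 1 mg/kg. Of the 13 tested liver markers 0 were called in either. The list was not set beside the Cyp8b1 falls of day 28. The liver marker F2 had a Pearson r of 0.801 with Cyp8b1 over the group means and 0.381 within groups. The part of liver RNA in the Cyp8b1 levels was not tested. Without the arrays with Alb above 12, the day 14 count was 7 called in place of 5.

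**Figure D4:**
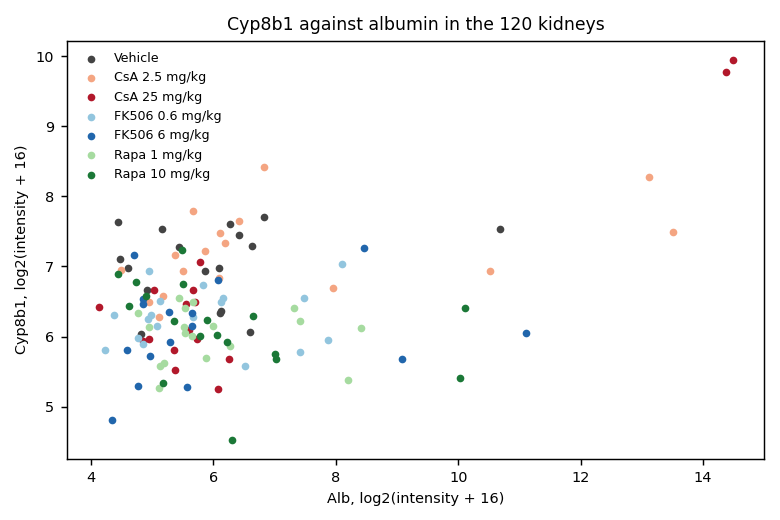
Cyp8b1 level (y axis) against the level of the liver gene Alb (x axis) in the 120 kidneys, both as log2 of intensity plus 16, coloured by treatment. The 2 points at the upper right are the CsA 25 mg/kg rats of day 1 at 9.95 and 9.77, with Alb at 14.49 and 14.38.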

How the data were processed

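Kidney RNA was hybridised to Affymetrix rat expression arrays, 1 for each of 120 rats. Per the labels, GeneChip Operating Software made the values, and the authors deposited 1 linear intensity per probe set and array; the probe summary and scaling are not given in the sources used here. Of 31099 probe sets, 57 are controls, 20826 name 1 gene, 436 several and 9780 none in the platform annotation, which can be old. Intensities plus 16 were put on the log2 scale and quantile normalised. The probe set with the highest mean intensity stood for a gene (14217 genes), and the dimmest 25% (3554) were left out. In limma, 28 group means were estimated from the 120 arrays together (version 3.58.1, R 4.3.3, 92 residual degrees of freedom), with empirical Bayes moderation, Benjamini-Hochberg adjustment over the 10663 genes of each comparison and calls at an adjusted p under 0.05. The fit was tested on simulated data. Log2 differences understate changes of dim genes because of the offset.

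The 5 genes and all gene lists were chosen with earlier results of these data known. By a fixed rule the text names the 5 genes, at most 4 called genes per pathway list and comparison, defining markers and the 3 most similar genes of each. Replicate numbers follow accession order and only name rats. Replicates are separate rats, and their number limits the precision. Promoters came from RefSeq (GRCr8), and Tm4sf20 was not in that table.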

Additional observations from a re-analysis of the deposited data

Results flagged for a closer look

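In 6 of the 135 combinations of gene and group with 4 to 10 rats, 1 rat stood far from the rest of its group; by chance about 5% of such groups are marked. Gcgr was at 8.16 in FK506 6 mg/kg day 1 replicate 4, with the nearest rat at 7.34. Pklr was at 10.23 in Rapa 1 mg/kg day 7 replicate 1 (nearest 9.80) and at 9.54 in Rapa 10 mg/kg day 14 replicate 2 (nearest 9.24). Gtpbp4 was at 10.28 in FK506 0.6 mg/kg day 7 replicate 4 (nearest 11.25) and at 9.92 in Rapa 10 mg/kg day 14 replicate 2 (nearest 11.32), the rat on which its day 14 call rested. Tm4sf20 was at 4.70 in Rapa 1 mg/kg day 28 replicate 4, with the nearest rat at 7.55.

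The effect of CsA 25 mg/kg on Cyp8b1 differed between days 1 and 14 by -2.64 on the log2 scale (limma adjusted p = 0.00592), and by -0.87 without the arrays with Alb above 12, which include 2 of the 4 day 1 rats.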

How the results depend on the processing

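No paired analysis was possible because every rat was sampled once and the labels carry no replicate number shared between groups. Of 79 values of the called differences under alternatives other than leaving out a rat, 68 kept direction and call and 11 lost the call, and of 55 with 1 rat left out, 38 kept both and 17 lost the call; none changed sign. The count called higher at day 1 went from 0 to 1 without quantile normalisation, with an offset of 64, without the filter on dim genes, with all probe sets apart, with an intensity trend, with the Gapdh ratio as covariate, without the array with zeros and with the second probe sets of Pklr and Gtpbp4, and ranged from 0 to 1 with 1 rat left out. The count called lower at day 14 was 3 with the second probe sets and 2 with day 7 vehicle rats (both chosen after seeing the data), and ranged from 2 (without vehicle replicate 1 or 4) to 7 with 1 rat left out. Leaving out 1 rat gave 0 to 1 calls between doses and 0 to 2 changed effects. The median of the 15 higher-dose differences of day 28, described without a test, was -1.5 and lay between -1.59 and -1.07 under the alternatives and between -1.63 and -1.48 with 1 rat left out. Of 462 described day 28 values, 439 moved by less than 1 SD. Groups of 3 to 6 rats, and the offset at dim probe sets such as Cyp8b1 and Gcgr, limit what can be called.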
